A study of Mus musculus with 4 samples.

Results

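The genes described here encode the nuclear subunits of the oxidative phosphorylation system. They were chosen by gene name: every gene on the array called Ndufa, Ndufb, Ndufc, Ndufs or Ndufv with a number, Uqcr, Cox4 to Cox8, Atp5, or Sdha to Sdhd. The rule matched 82 of the 31829 gene names on the array, and these genes carry 111 of its 39429 probes. Among them were 35 genes of complex I, 4 of complex II, 7 of complex III, 18 of complex IV and 14 of complex V, and 4 genes that share the naming but encode no subunit (Cox7a2l, Cox4nb, Atp5s and Atp5sl). Total RNA came from mouse embryonic fibroblasts (MEFs) of C57BL/6J mice, cultured in DMEM with 10% fetal bovine serum and collected in logarithmic growth. The 4 genotypes, each hybridised to 1 single-color Agilent array, were labelled CycG2-/- (G2KO), CycG2+/+ (WT of the G2KO comparison), CycG1-/-CycG2-/- (DKO) and CycG1+/+CycG2+/+ (WT of the DKO comparison). Cyclin G1 and cyclin G2 are related cyclins of the DNA damage response, and the study asked which genes differ when 1 or both are lost. No MEF preparation had a second array, so differences between arrays are given without a test, and a difference between genotypes cannot be told apart from a difference between preparations.

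Oxidative phosphorylation is the pathway by which mitochondria make most of the ATP of an animal cell. Complexes I and II pass electrons from NADH and succinate to ubiquinone, complex III passes them on to cytochrome c, and complex IV reduces oxygen. Complexes I, III and IV pump protons across the inner membrane, and complex V, the ATP synthase, lets them flow back to make ATP. Most subunits are encoded in the nucleus and a small set in mitochondrial DNA, so 2 genomes have to supply matching parts. Complex II, whose subunits are all nuclear, also serves the tricarboxylic acid cycle as succinate dehydrogenase. Several subunits of complex IV exist as pairs of paralogues, a common form and a form restricted to heart and skeletal muscle, lung or testis. Fibroblasts in culture express the common forms.

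Each level below is the processed signal of a probe divided by the 75th percentile of all spots on that array (P75), and each difference is a log2 ratio of such levels between 2 arrays. A ratio of 2-fold or more, a log2 ratio of at least 1 in size, is called past 2-fold. Error was taken from probes printed several times on an array and read over P75, so it does not describe dimmer signals. The spread between their spots was 0.0585 to 0.103 on the log2 scale. This makes the SD of a log2 ratio 0.0943 for DKO with its WT and 0.12 for the array labelled G2KO with its WT. This error covers the spots of a single hybridisation and leaves out culture, labelling and preparation.

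Labels were checked before the members. On the DKO array the Ccng1 probe, at 0.00685 times P75, was not well above background, and it read 1.66 on the WT of DKO, 1.98 on the array labelled G2KO and 9.45 on its labelled WT, but the Ccng2 probe read 0.0910, 0.104, 0.0619 and 0.0807 times P75 on the arrays labelled G2KO, WT of G2KO, DKO and WT of DKO, and so did not separate knockout from WT. Xist and En2 were high only on the array labelled WT of G2KO (1.13 and 14.8 times P75). The study gives both genes, and Sox2, as higher in G2KO MEFs, and Pdgfra as lower. On the labels used here all of these go in the opposite direction. Directions in the G2KO comparison therefore rest on the labels and would turn if the labels of this pair were exchanged. The study puts its high Xist down to the female origin of the MEFs. Embryo sex may thus differ between the array labelled WT of G2KO and the others. It cannot be told apart from genotype or preparation here. Cell type also differed between arrays. All 12 mesothelial markers were higher in DKO than in its WT, by a median log2 ratio of 6.40, with their summed level at 150.2 times P75 against 0.658 to 1.70 on the other arrays, and Wt1 was well above background on the DKO array alone. Of 14 fibroblast markers, 13 were lower in DKO than in its WT, with a median of -0.61 and a summed level of 423.9 against 621.9. On the array labelled WT of G2KO the fibroblast markers Pdgfra and Fap were not well above background, Thy1 read 0.461 times P75 against 3.42 to 61.6 on the other arrays, and the neural progenitor markers Sox2 and Nes were highest. The collagen genes of the list were well above background on all 4 arrays, Col1a1 between 37.2 and 54.3 times P75 and highest on that array, and Col3a1 at 1.77 there against 8.99 to 30.0 on the others. In bulk RNA, fewer cells of a type and less RNA per cell cannot be told apart, and the part of cell type in the results below was not tested.

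Promoter sequence is a feature of the members that the name rule did not use. A RefSeq promoter window (GRCm38.p6, 250 bases before to 50 after the transcription start) was found for 67 of the 82 members, 73 windows in all. Their median GC content was 57.7% against 52.7% for all 32851 promoters of the same length, and they held a median of 19 CpG dinucleotides against 7. The letters GCGCATGC, the core of the site of nuclear respiratory factor 1 (Nrf1), a regulator of respiratory genes, stood in 13.7% of member windows against 2.71% of all windows, searched on both strands. The ETS-type letters CCGGAAG, as bound by Gabpa, stood in 21.9% against 8.86%. For AAGGTCA, the element of Esrra and other nuclear receptors, the shares were 11.0% and 4.72%, for GATGGCGG of Yy1 12.3% and 1.70%, for the GC box GGGCGG 39.7% and 35.7%, and for TATAAA 11.0% and 13.6%. A match is a string of letters and not a shown site, and these motifs can overlap.

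The windows below are the 100 bases before the start of 7 members that the results turn on, 5′ to 3′ on the strand of the gene, with any of the 6 motifs in capitals. Sdhb (chr4:140961171-140961270, plus strand), Ndufa6 (chr15:82354292-82354391, minus strand) and Atp5g2 (chr15:102671048-102671147, minus strand) show the Nrf1 letters or their reverse complement, Sdhd (chr9:50603850-50603949, minus strand) the ETS letters and Ndufb8 (chr19:44555443-44555542, minus strand) the GC box. Ndufa4 (chr6:11907451-11907550, minus strand) and Cox6b2 (chr7:4753095-4753194, minus strand), both past 2-fold between DKO and its WT, held none of the letters in these bases. In the rest of its window Cox6b2 held the GC box, and Ndufa4 held none of the motifs.
Sdhb: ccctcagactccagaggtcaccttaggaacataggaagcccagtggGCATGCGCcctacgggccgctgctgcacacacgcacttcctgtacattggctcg
Ndufa6: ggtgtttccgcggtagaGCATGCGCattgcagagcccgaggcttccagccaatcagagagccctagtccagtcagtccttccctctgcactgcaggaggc
Atp5g2: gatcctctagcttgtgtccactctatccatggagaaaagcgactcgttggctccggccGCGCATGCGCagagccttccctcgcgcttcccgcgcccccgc
Sdhd: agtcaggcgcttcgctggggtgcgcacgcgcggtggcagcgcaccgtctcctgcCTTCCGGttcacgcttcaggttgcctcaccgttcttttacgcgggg
Ndufb8: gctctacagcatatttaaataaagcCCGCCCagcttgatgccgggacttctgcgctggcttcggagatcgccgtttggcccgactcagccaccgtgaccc
Ndufa4: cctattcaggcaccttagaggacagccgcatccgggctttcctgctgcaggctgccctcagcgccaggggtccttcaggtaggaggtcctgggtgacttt
Cox6b2: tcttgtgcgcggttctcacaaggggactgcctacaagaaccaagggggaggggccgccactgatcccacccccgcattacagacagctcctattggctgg
The 10 members with the Nrf1 letters anywhere in their windows had a median log2 ratio of -0.04 for DKO with its WT, and the 54 compared members without them 0.16. For the array labelled G2KO with its WT the medians were -0.02 with the letters and -0.23 without. The lower median with the letters was not particular to Nrf1 for DKO with its WT, since every other motif had it too. It was 0.02 with and 0.17 without CCGGAAG, -0.02 and 0.17 for AAGGTCA, and 0.11 and 0.17 for GGGCGG. For GATGGCGG and for TATAAA it was 0.08 with and 0.15 without. The other motifs went both ways for the array labelled G2KO with its WT. These are descriptions of small groups that share the same 4 arrays.

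Nearly all members were read as high signals. Of the 82, 78 were well above background on all 4 arrays, 72 also lay over P75 on all 4, and 3 (Cox7b2, Cox8b and Cox8c) were well above background on none. Ndufs8 had no value on the DKO array because its single spot there was marked as an outlier, and is described on the other 3 arrays. The members spread over 19 chromosomes, with 9 on chromosome 7, so no single region carries them. They varied less between arrays than most genes. The range over the 4 arrays had a median of 0.53 on the log2 scale for the 78 members, against 0.80 for the 19466 genes well above background on all 4 arrays and 0.68 for the 6999 genes over P75 on all 4. It reached 2-fold in 7 of the 78 members, or 8.97%, against 37.1% of the 19466 genes and 24.9% of the 6999 genes over P75. The steadiest members were Atp5j (a stalk subunit of the ATP synthase), Ndufs3 (a core subunit of complex I) and Uqcrc1 (a core protein of complex III), with ranges of 0.13, 0.13 and 0.14.

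**Figure D1:**
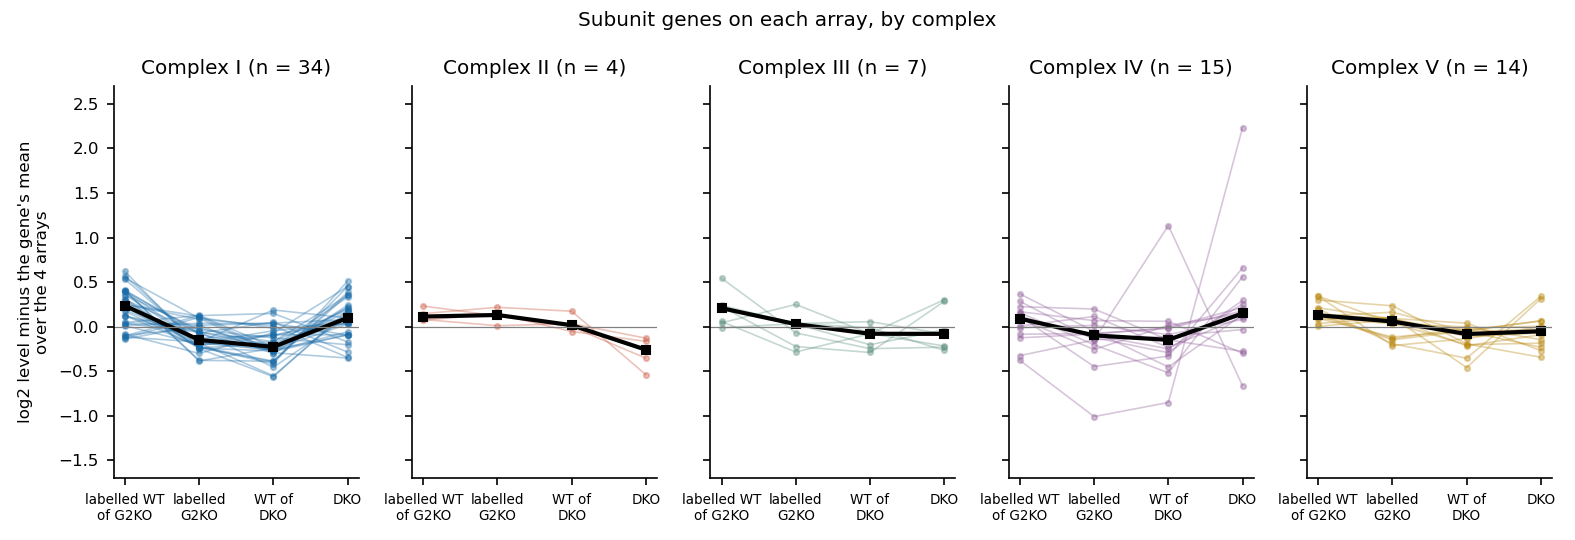
Level of each subunit gene on each of the 4 arrays, as log2 of the signal over P75 minus the gene's mean over the arrays, with 1 thin line per gene, a panel per complex and the median over genes in black squares (n is the number of genes well above background on all 4 arrays; the order of arrays on the x axis carries no time). The complex I median was lowest on the WT of DKO and highest on the array labelled WT of G2KO, all 4 complex II genes were lowest on the DKO array, and Cox6b2 is the single line that reaches above 2 in complex IV.

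Between DKO and its WT the members as a group lay slightly higher, with a few genes far apart. The median log2 ratio over 78 members was 0.14 with quartiles of -0.10 and 0.50, beside 0.03 over all 22890 genes compared and -0.05 over the genes over P75. Of the members, 53 of 78 (67.9%) were higher in DKO, against 52.5% of all genes. Past 2-fold were 3 members, 2 higher (Cox6b2 and Ndufa4) and 1 lower (Cox6a2). This share, 3.85%, was below the 20.3% of all genes and the 7.83% of the genes over P75. At 1.5-fold, 13 were higher, against 19.8% of all genes, and 2 were lower, against 18.3%. Nearest to the 2-fold line were Ndufa4, past it at 1.08, and Cox7a1, short of it at 0.99.

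The direction of this median depended on the WT array. With the array labelled WT of G2KO in place of its own WT, the median over members was -0.16, with 50 of 78 members lower in DKO. The medians of complexes I, III and V turned sign with it, those of complexes II and IV did not. The medians of complexes III and V with its own WT, 0.02 and 0.03, also changed sign with the scaling, with lowest values of -0.06 and -0.05. Only 2 members differed from both WT arrays by over 1.5-fold in 1 direction, Cox6b2, higher in DKO, and Sdhb, lower in DKO. The call for Sdhb rests on its brighter probe: with the median over its probes the log2 ratio to its WT was -0.56, under 1.5-fold. Among all genes, 13.1% were higher than both WT arrays by this measure and 9.31% lower. For the array labelled G2KO no member was past 1.5-fold from both WT arrays in either direction, against 3.57% of all genes higher and 2.87% lower.

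Cox6b2 encodes the testis isoform of a small complex IV subunit that joins the monomers of the complex IV dimer. Its probe (chr7:4703488-4703547, mm9) read 0.156 times P75 on the array labelled G2KO, 0.241 on its WT, 1.48 on DKO and 0.174 on the WT of DKO. The DKO array stood far above the other 3, which lay close together. The log2 ratio of DKO to its WT was 3.08, an 8.48-fold difference, and it stayed between 2.61 and 3.18 in 11 alternatives. The other testis isoforms of complex IV, Cox7b2 and Cox8c, were not well above background on any array, DKO included. The common paralogue Cox6b1 read 3.66, 4.93, 3.96 and 3.76 times P75 in the same order of arrays, a log2 ratio of 0.08 for DKO with its WT.

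Ndufa4 was named as a complex I subunit and is now placed in complex IV. It read 15.8 times P75 on the array labelled G2KO, 20.3 on its WT, 26.8 on DKO and 12.7 on the WT of DKO (chr6:11850423-11850482, mm9). DKO was highest and its WT lowest, so the log2 ratio was 1.08 with its WT and 0.40 with the other WT array. Cox6a2, the heart and skeletal muscle isoform of subunit VIa, read 0.0784, 0.0694, 0.0549 and 0.191 times P75 in the same order (chr7:135349160-135349219, mm9). Here the WT of DKO was the array that stood apart, the log2 ratio of DKO to its WT was -1.80, and against the other WT array it was -0.34. Cox7a1, the muscle isoform of subunit VIIa, read 0.0552, 0.0816, 0.119 and 0.0600, again a low signal on every array. Of 11 markers of skeletal and cardiac muscle, 5 to 9 were well above background per array, with a summed level of 3.104 times P75 on DKO and 5.34 to 15.8 on the others, mostly from Acta1 and Tnnt2. These differed in opposite directions for DKO with its WT, Acta1 by -2.65 and Tnnt2 by 3.30, so the lower sum on DKO came from Acta1. Ckm (creatine kinase of muscle), Myod1 and Myog (muscle regulators) were at or near background on every array, between 0.00197 and 0.0114 times P75.

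**Figure D2:**
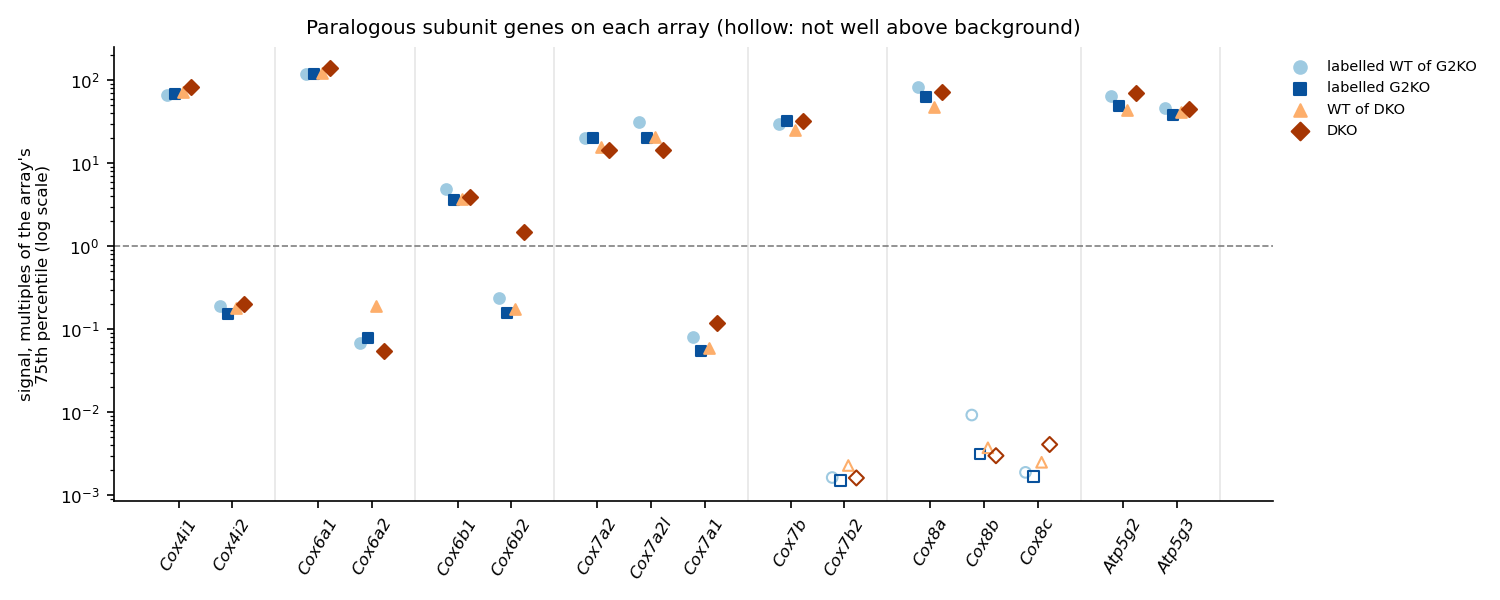
Signal of each member of 7 paralogue families on each array, in multiples of the array's P75 on a log axis, with the dashed line at P75 and hollow marks for values not well above background. Values are to be compared within a gene, across its 4 marks, since different probes differ in brightness; DKO stands apart for Cox6b2 and the WT of DKO for Cox6a2, while Cox7b2, Cox8b and Cox8c are hollow throughout.

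The other paralogues that were well above background were within 2-fold in all 3 comparisons. Cox4i1, the common form of subunit IV, read between 66.1 and 83.7 times P75 and its lung isoform Cox4i2 between 0.152 and 0.201, and their log2 ratios for DKO with its WT were 0.23 and 0.14. Cox6a1 lay between 118.2 and 141.9 times P75, Cox7a2 between 14.3 and 20.3, and Cox7b between 25.5 and 32.4, with ratios of 0.20, -0.13 and 0.34 for DKO with its WT. Cox8a, the common form of subunit VIII, read 62.9, 84.1, 71.6 and 47.6 times P75 on the arrays labelled G2KO, WT of G2KO, DKO and WT of DKO, lowest on the last, with a log2 ratio of 0.59 for DKO with its WT. Both of its probes gave a log2 ratio near -0.82 between the WT arrays, the lower and the higher at -0.82 and -0.81. Atp5g2 and Atp5g3, which encode identical mature c-ring subunits of the ATP synthase from separate genes, had ratios of 0.70 and 0.11 for DKO with its WT, and Atp5g1 was not analysed here. Over the 10 common isoforms of complex IV the median for DKO with its WT was 0.21, with 8 of 10 higher.

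All 4 genes of complex II were lowest on the DKO array. Sdha, the flavoprotein that oxidises succinate, read 10.6 times P75 on the array labelled G2KO, 10.1 on its WT, 8.59 on DKO and 9.27 on the WT of DKO. Sdhb, the iron-sulphur subunit (chr4:140535052-140535108, mm9), read 15.9, 15.2, 9.43 and 15.5. The other 3 arrays agreed closely for Sdhb, with the DKO array about 1.6 times below them in each case: its log2 ratio to its WT was -0.71 and to the other WT array -0.69. The membrane anchors Sdhc and Sdhd read 5.31, 5.58, 4.82 and 5.41, and 15.2, 16.4, 10.9 and 13.9, with ratios of -0.17 and -0.35 for DKO with its WT. The difference for Sdhb was above the SD of a ratio from repeated spots, and its second probe gave -0.41. The median of the complex was -0.26 with its own WT and -0.41 with the other WT array, and 0.00 for the array labelled G2KO with its WT. Of all genes well above background on all 4 arrays, 31.0% were lowest on DKO. Sdha alone changed sign under another processing, to 0.03 with normexp background correction.

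Complex I was described by its core and its accessory subunits. The core subunits carry the flavin, the iron-sulphur clusters and the path of the electrons, and the accessory subunits surround them and serve assembly and stability. In DKO with its WT, 25 of 28 accessory genes were higher, with a median log2 ratio of 0.33 and a range from -0.34 to 0.93. Of the core genes, 2 of 6 were counted as higher, 1 of them Ndufs7 at 0.00, with a median of -0.08. All 10 Ndufb genes, which belong to the membrane arm, were higher in DKO than in its WT, with a median of 0.44, although 1 of the 3 probes of Ndufb11 gave -0.16. Against the other WT array, 11 of 28 accessory genes were higher with a median of -0.08, 5 of 10 Ndufb genes with 0.06, and 2 of 6 core genes with -0.28, so the accessory median changed sign and the core median did not. In the remaining comparisons the accessory median was the lower one. It was -0.39 against -0.18 for the array labelled G2KO with its WT, and -0.51 against -0.35 between the WT arrays.

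Of the 34 complex I genes with a value on all 4 arrays, 19 (55.9%) were highest on the array labelled WT of G2KO, against 36.7% of all genes. Highest on DKO were 10 (29.4%), close to the 28.6% of all genes. Ndufa5 (chr6:24468666-24468725, mm9), an accessory subunit of the peripheral arm, read 13.7 times P75 on the array labelled G2KO, 25.1 on its WT, 18.5 on DKO and 11.0 on the WT of DKO. Ndufb8 (chr19:44624855-44627199, mm9) read 19.6, 33.0, 24.9 and 15.2, and Ndufb2 13.9, 23.9, 23.2 and 13.8. In these 3 genes the array labelled WT of G2KO was the highest and the WT of DKO the lowest, so that the arrays that share a WT label lay at opposite ends. Both probes of Ndufa5 and of Ndufb2 gave close ratios, within 0.18 and 0.04 of each other in every comparison. Ndufa6 read 5.97, 10.3, 9.06 and 6.61, and Ndufb10 15.6, 25.5, 16.6 and 14.7. Among the members higher in DKO than in its WT, Ndufb6 had a log2 ratio of 0.93 and Ndufa9, which binds a nicotinamide cofactor, 0.84.

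Among the core genes, Ndufs1, which carries iron-sulphur clusters, read 11.9, 13.4, 8.85 and 11.3 times P75 on the arrays labelled G2KO, WT of G2KO, DKO and WT of DKO, with DKO lowest. Ndufs3 held between 13.9 and 15.2. Ndufs7, which carries the last iron-sulphur cluster before ubiquinone, had a log2 ratio of 0.00 for DKO with its WT, and Ndufv1 and Ndufv2, of the module that takes electrons from NADH, had ratios of 0.41 and -0.08. Ndufs8 was measured in the G2KO comparison, with a ratio of -0.30. Ndufv3, an accessory subunit of the same module, is the 1 member whose probes disagreed by over 1: for the WT of DKO with the array labelled WT of G2KO they gave -0.61 and 1.06, and for the array labelled G2KO with its WT -0.44 and 0.58. For DKO with its WT both were higher, at 0.31 and 0.77.

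In the comparison of the array labelled G2KO with its labelled WT, 59 of 79 members (74.7%) were lower, against 60.6% of all genes. None was past 2-fold, against 17.1% of all genes and 6.39% of the genes over P75. The count of 0 comes with no test. The median over members was -0.21 with quartiles of -0.44 and -0.01, beside -0.17 over all 22794 genes and -0.13 over those over P75. At 1.5-fold, 8 members (10.1%) were lower, against 22.3% of all genes and 16.1% of the genes over P75. None was higher, against 15.1% and 7.8%. The 8 were Ndufa5 at -0.87, Ndufa6 at -0.79, Ndufb2 at -0.78, Ndufb8 at -0.75, Ndufb10 at -0.71, Cox6b2 at -0.63, Uqcrc2 at -0.61 and Cox7a2l at -0.61. By complex, the medians were -0.37 for complex I, 0.00 for II, -0.20 for III, -0.19 for IV and -0.10 for V. These signs depended on the scaling: over the scalings, filters and probe rules tried, the medians ran from -0.42 to 0.12 for complex I, from -0.04 to 0.49 for II, from -0.24 to 0.29 for III, from -0.23 to 0.31 for IV and from -0.16 to 0.39 for V, the upper ends without scaling. Without scaling all genes moved up too. Minus the median of all genes, complex I stayed below in every setting, from -0.23 to -0.07. Complexes II and V stayed above, from 0.15 to 0.25 and from 0.01 to 0.25, while III and IV went both ways. With the WT of DKO as the reference, the median over members was 0.08, with 50 of 79 members higher, so the sign turned here too.

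**Figure D3:**
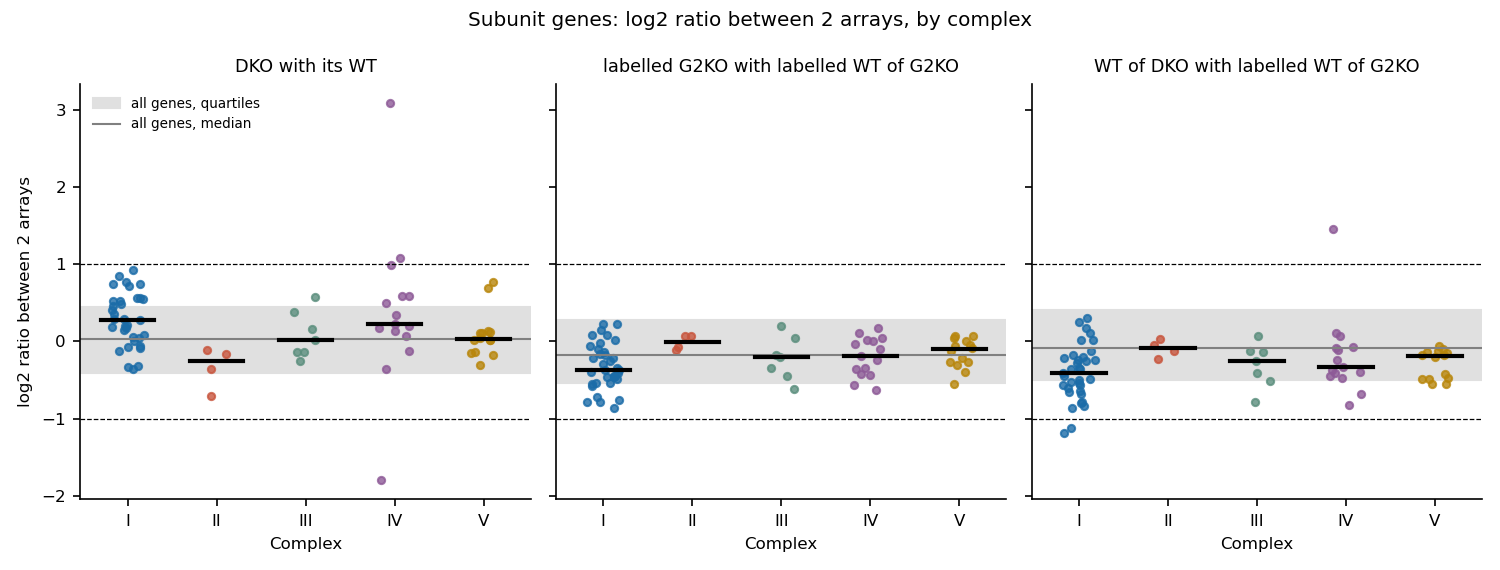
Log2 ratio of each subunit gene between 2 arrays, by complex, with a point per gene, black bars at the median of a complex, dashed lines at 2-fold, and the quartiles and median of all genes as a grey band and line. Past the dashed lines lie Cox6b2, Ndufa4 and Cox6a2 for DKO with its WT, no gene for the array labelled G2KO with its labelled WT, and Cox6a2, Ndufa5 and Ndufb8 between the arrays labelled WT.

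The arrays labelled WT also differed from each other. For the WT of DKO with the array labelled WT of G2KO the median over 79 members was -0.28, with quartiles of -0.52 and -0.12, beside -0.08 over all 22143 genes and -0.14 over those over P75. Lower on the WT of DKO were 67 of 79 members (84.8%), against 55.4% of all genes, and all 14 genes of complex V were among them. That direction turned with the scaling, since 8 of 14 were higher under quantile normalization (median 0.03), cyclic loess (0.08) and no scaling (0.06). Minus the median of all genes, these medians were 0.12, 0.08 and -0.11. Past 2-fold were 3 members (3.8%), Cox6a2 at 1.46, Ndufa5 at -1.18 and Ndufb8 at -1.12. The share was 21.6% of all genes and 10.8% of the genes over P75. At 1.5-fold, 14 members (17.7%) were lower, against 21.1% of all genes and 20.7% of the genes over P75. Only 1 was higher, against 19.5% and 10.2%. Of the 14, 10 were accessory genes of complex I, among them Ndufs4 at -0.86 and Ndufc1 at -0.84. This comparison shares an array with each of the others, so their values are not independent of it. Between the array labelled G2KO and the WT of DKO, which would be the pair of WT arrays if those labels were exchanged, the members had quartiles of -0.05 and 0.21 and 1 of 79 past 2-fold. All genes spread less in this pair too, with 9.18% past 2-fold.

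Complexes III and V showed small differences. Uqcrc1 held between 6.69 and 7.35 times P75. Uqcrc2, the other core protein of complex III, read 9.60 on the array labelled G2KO, 14.7 on its WT, 8.59 on DKO and 8.49 on the WT of DKO. It was high on the array labelled WT of G2KO alone. Uqcrfs1, the Rieske iron-sulphur protein, had a log2 ratio of -0.14 for DKO with its WT and 0.21 for the array labelled G2KO with its WT. In complex V the catalytic beta subunit Atp5b read between 61.6 and 71.2 times P75 and the alpha subunit Atp5a1 between 19.0 and 23.0. Atp5h, a subunit of the peripheral stalk, was the largest difference of complex V for DKO with its WT, at 0.77, and its 2 probes gave 0.38 and 0.77. Cox5a and Cox5b, common subunits of complex IV, had ratios of -0.36 and 0.17. Cox7a2l, listed under supercomplex assembly, read 20.4, 31.1, 14.5 and 20.6 times P75 in the order used above. It was highest on the array labelled WT of G2KO and lowest on DKO, with 3 probes in the same direction.

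The partners of these subunits were described by lists. The 12 transcripts of mitochondrial DNA that were matched were all well above background on all 4 arrays. Their median log2 ratio was 0.15 for DKO with its WT, -0.49 for the array labelled G2KO with its WT and -0.37 between the arrays labelled WT, with none past 2-fold and their highest summed level on the array labelled WT of G2KO (836.9 times P75, against 601.2 to 709.4). The other nuclear proteins of the chain, such as cytochrome c (Cycs) and the carrier protein Ndufab1, had medians of 0.13, -0.36 and -0.34. For the assembly factors they were 0.13, 0.07 and -0.10. In the list of regulators, 5 of 18 genes (27.8%) were past 2-fold for DKO with its WT, against 20.3% of all genes. The coactivator Ppargc1a, which drives mitochondrial biogenesis, read 0.106, 0.0506, 0.0223 and 0.0878 times P75 on the arrays labelled G2KO, WT of G2KO, DKO and WT of DKO, and its relative Ppargc1b 0.0541, 0.0594, 0.0156 and 0.0679. Both were lowest on DKO, by log2 ratios of -1.98 and -2.13 to its WT and of -1.18 and -1.93 to the other WT array, from signals below P75 on every array. Esrra, the nuclear receptor they work with, read 2.57, 5.70, 5.70 and 2.64, high on DKO and on the array labelled WT of G2KO. For DKO with its WT, Esrra differed by 1.11, Myc by -1.01 and Prkaa2, a catalytic subunit of AMP-activated kinase, by 1.37. Against the other WT array the 18 regulators compared ran from -2.36 to 0.16, so none was past 2-fold higher in DKO there. The lowest regulator stood at -3.29 for the array labelled G2KO with its WT and at -3.73 between the WT arrays. Over the 18 regulators compared, 15 were lower in DKO, with a median of -0.45, and of -0.50 against the other WT array.

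Lists outside the chain give the scale of these differences. The medians for DKO with its WT, the array labelled G2KO with its WT and the WT arrays were -0.24, -0.10 and -0.08 for mitochondrial DNA maintenance and transcription, with 1 gene past 2-fold (Ssbp1 at -1.08 between the WT arrays). They were -0.11, 0.12 and 0.03 for a list of the tricarboxylic acid cycle and enzymes that feed it. In that list the feeding enzymes Dlat, at -1.02 in DKO, and Pcx, at 1.42 on the array labelled G2KO, were past 2-fold. For 72 genes of the mitochondrial ribosome the medians were 0.06, -0.19 and -0.22, with Mrpl55 at 1.79 in DKO. For 80 genes of the cytosolic ribosome, a list added after the data were seen, they were 0.01, -0.51 and -0.48. The 16 proliferation genes had medians of 0.05, -0.60 and -2.04, all 16 lower than on the array labelled WT of G2KO in both comparisons with it. Their summed level was 189 times P75 on that array and 50.7 to 123.6 on the others, and their part in the members' levels was not tested.

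**Figure D4:**
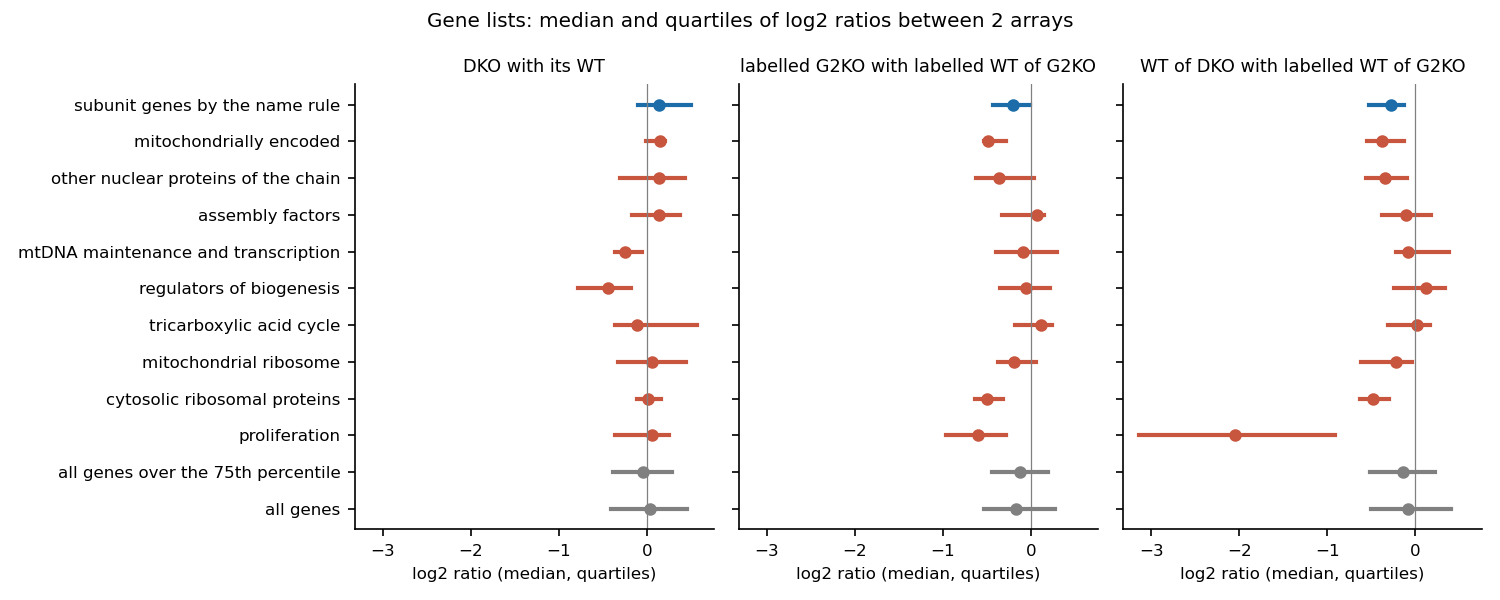
Median (point) and quartiles (line) of log2 ratios for the subunit genes in blue, related lists in red and all genes in grey, in the 3 comparisons on 1 scale. The subunit genes lie near all genes in each panel, and the proliferation list reaches -2.04 between the arrays labelled WT.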

How the data were processed

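RNA from each of 4 MEF preparations was read in a single color, Cy3, on an Agilent mouse expression array. The 4 arrays shared 1 slide and 1 scan. The authors deposited the intensity of each spot from Agilent Feature Extraction (version 10.7.3.1 per the file headers, 10.5.1.1 per the labels), corrected for background and spatial trend and not scaled between arrays; the deposited value table holds the same intensity. Each array has 43020 spots that are no control, of which 107 to 140 marked as outliers were dropped and none was saturated. The study's methods describe dye swaps for the G2KO comparison, whereas labels and files describe 1 color.

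Signals were divided by the 75th percentile of all non-control spots, logged and averaged over spots of a probe. A gene is represented by its brightest probe on average. A gene was compared if either array was well above background; a dim side was raised to the lowest such signal of its array. A fit with both WT arrays as replicates leaves 1 residual degree of freedom and was not used here. The number of arrays limits the precision. Python 3.11.15, numpy 2.4.6, pandas 2.3.3, R 4.3.3 and limma 3.58.1 (normexp with offset 50, quantile and cyclic loess) were used, and the ratio step was tested on simulated data. Probe positions are on mm9; all 82 members were matched to RefSeq by accession (GRCm38.p6, names and promoters only).

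Named members are the 8 with the largest log2 ratio per comparison, 7 paralogue families, the Sdh genes, members not well above background, core or catalytic subunits (1 of them is not reported here by name), and members whose probes differ by over 1; the named members of lists are those past 2-fold, with Cycs and Ndufab1 among them. The steadiest members, Ndufb11, the members named for their promoters and the marker genes were named after their values were seen. Members and lists were chosen with earlier results of these data known. Besides those in the text, lists of macrophage, endothelial and brown adipocyte markers were read, with medians of 0.19, -0.14 and -1.98 for DKO with its WT, over 6, 3 and 3 genes.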

Additional observations from a re-analysis of the deposited data

How the results depend on the processing

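With 1 array per group no replicate could be left out, and no paired analysis was possible because no group has a second array. The sign of the members' median rested on the reference array: with the WT array of the other comparison it was -0.158 for DKO and 0.08 for the array labelled G2KO, and with the mean of both WT arrays -0.015 and -0.047. For the array labelled G2KO it was -0.014 under quantile normalization, 0.002 under cyclic loess and 0.285 both unscaled and in the deposited value table, where the median of all genes also moved, from -0.17 to 0.33. Between the WT arrays the median was -0.147 under quantile normalization, -0.106 under cyclic loess, -0.466 with scaling to the median and -0.037 unscaled and in the table. The median minus that of all genes ran from -0.14 to 0.19 for DKO, from -0.08 to 0.14 for the array labelled G2KO and from -0.31 to -0.06 between the WT arrays.

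Past 2-fold between the WT arrays were 1 member under quantile, cyclic loess, no scaling and the table, and 6 with scaling to the median. For the array labelled G2KO, 1 was past it without filter and floor, and 1 with the other WT array. For DKO, 1 was past it among the members over P75. At 1.5-fold the counts were 15 for DKO, 8 for the array labelled G2KO and 15 between the WT arrays, and at 4-fold 1 for DKO and 0 between the WT arrays. Of 1322 recomputed ratios of 46 named genes, 819 moved by less than the spread between spots and 503 by more, and none past 2-fold changed sign. Values against both WT arrays or against the WT of the other comparison by complex, complex medians under other scalings and the cytosolic ribosomal list were chosen after seeing the data. Probes near background, such as Cox6a2 and Cox7a1, are the least certain, and 1 array per genotype limits every difference.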
